A study of Mus musculus with 24 samples.

Results

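The transcripts of 10 stress granule proteins, G3bp1, G3bp2, Caprin1, Usp10, Ubap2l, Tia1, Tial1, Fmr1, Fxr1 and Fxr2, were followed through RNA-seq of Neuro2A cells, a mouse neuroblastoma line, because ataxin-2, the protein targeted in the study, is itself a component of stress granules. They were taken by gene symbol from the deposited table of 39253 genes. All 10 were listed, all 10 were kept by the authors, and all 10 passed the filter on low values, a minimum of 0.5 CPM (counts scaled by the total of the sample) in at least 3 samples, that left 13901 genes for testing. The 24 samples formed 8 groups of 3 independent biological replicates. In 6 groups, wild-type cells were transiently transfected with plasmids for one of 3 RNA-targeting effectors, RfxCas13d, its high-fidelity variant HiFi-RfxCas13d or DiCas7-11, together with a crRNA against mouse ataxin-2 (mATXN2) or a non-targeted (NTG) crRNA, and were harvested 48 hr later. The remaining groups were untransfected cells, the negative control, and cells that received an antisense oligonucleotide (ASO) against ataxin-2, the positive control. The columns of the deposited table name the arms EV and G12 where the sample labels give NTG and G10, and whether EV means an empty vector or the NTG crRNA is not stated. The name NTG of the labels is kept for that arm, and columns were matched by effector, arm and replicate number. How the ASO was delivered is not given in the labels, and no step that selects transfected cells is described there, so each value is an average over a culture.

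Stress granules are cytoplasmic condensates of RNA and protein that form when translation initiation is blocked, for instance after phosphorylation of eIF2alpha, and that dissolve when translation resumes. G3BP1 and G3BP2 bind the released mRNA and nucleate the granule. CAPRIN1 and USP10 compete for the same site on G3BP, the former favouring assembly and the latter opposing it, while UBAP2L is needed for G3BP to nucleate granules. TIA1 and TIAL1 (TIAR) carry RNA recognition motifs and a prion-like domain and silence bound mRNAs. FMR1, the protein lost in fragile X syndrome, and its paralogs FXR1 and FXR2 are polysome-associated RNA-binding proteins that enter stress granules. In neurons, stress granules are studied because proteins such as TDP-43 and ataxin-2 meet in them.

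Total counts per sample were between 12665725 and 22504999 with a median of 16478419, and the ASO samples were the deepest. Replicates of a group differed by 1.68 to 5.6 times counting noise in chi-square, most among the NTG samples of DiCas7-11, so no pair of libraries appeared to be the same one. Of 12 markers of a neuroblast or sympathetic neuroblastoma cell, 10 were detected, with a summed level of 1104 to 1172 CPM. Markers of astrocytes summed to at most 0.556 CPM (0 of 4 detected, Aqp4 at 0), of oligodendrocytes to at most 14.2 CPM (1 of 4, Olig2 at 0), of immune cells to at most 2.42 CPM (1 of 4), and of fibroblasts or endothelium to at most 12.2 CPM (2 of 5).

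The targeted transcript was checked first. Atxn2 stood at 123, 124 and 120.4 CPM in untransfected cells and at 55.4, 54.1 and 50.1 CPM in the ASO samples. With RfxCas13d it stood at 119, 121 and 125 CPM in the NTG samples and 116, 111 and 113 CPM in the mATXN2 samples. The corresponding values were 123, 112 and 122 against 98.0, 101 and 103 CPM for HiFi-RfxCas13d and 116, 119.7 and 119 against 102, 106 and 103 CPM for DiCas7-11. In all 4 pairs the treated samples lay below their controls without overlap. In the quasi-likelihood test of edgeR, with p-values adjusted over all 13901 genes by the Benjamini-Hochberg method, Atxn2 fell by a log2 fold change of -1.25 in the ASO samples (adjusted p = 1.65e-19), -0.23 with HiFi-RfxCas13d (adjusted p = 0.00157) and -0.20 with DiCas7-11 (adjusted p = 0.00557). For RfxCas13d the log2 fold change was -0.10 and did not pass (edgeR adjusted p = 0.178).

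All 10 transcripts were well expressed. In untransfected cells, CPM per kilobase of the median protein-coding transcript in the GENCODE M21 annotation was highest for Caprin1 (364 ± 7.16, SD, n = 3), then Fxr1 (181 ± 1.82), G3bp2 (101 ± 1.51), Ubap2l (92.8 ± 3.89), Tial1 (88.3 ± 2.03), Usp10 (86.7 ± 2.94) and G3bp1 (75.4 ± 1.94). Fmr1 (30.8 ± 1.19), Tia1 (29.7 ± 0.876) and Fxr2 (27.1 ± 0.616) formed the low end. In this order Ubap2l overlapped with Tial1, Tial1 with Usp10, and Fmr1 with Tia1, and the other neighbours did not overlap. The least abundant, Fxr2, still lay at percentile 66.1 of the tested genes and Caprin1 at percentile 97.8. The order depended on the length used: per kilobase of coding sequence G3bp1 ranked first, because its annotated transcript of 6703 bases holds a coding sequence of 1395 bases. Between paralogs, G3bp2 exceeded G3bp1 per kilobase of transcript but not per kilobase of coding sequence, whereas Tial1 exceeded Tia1 and Fxr1 exceeded Fmr1 and Fxr2 on both scales.

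**Figure D1:**
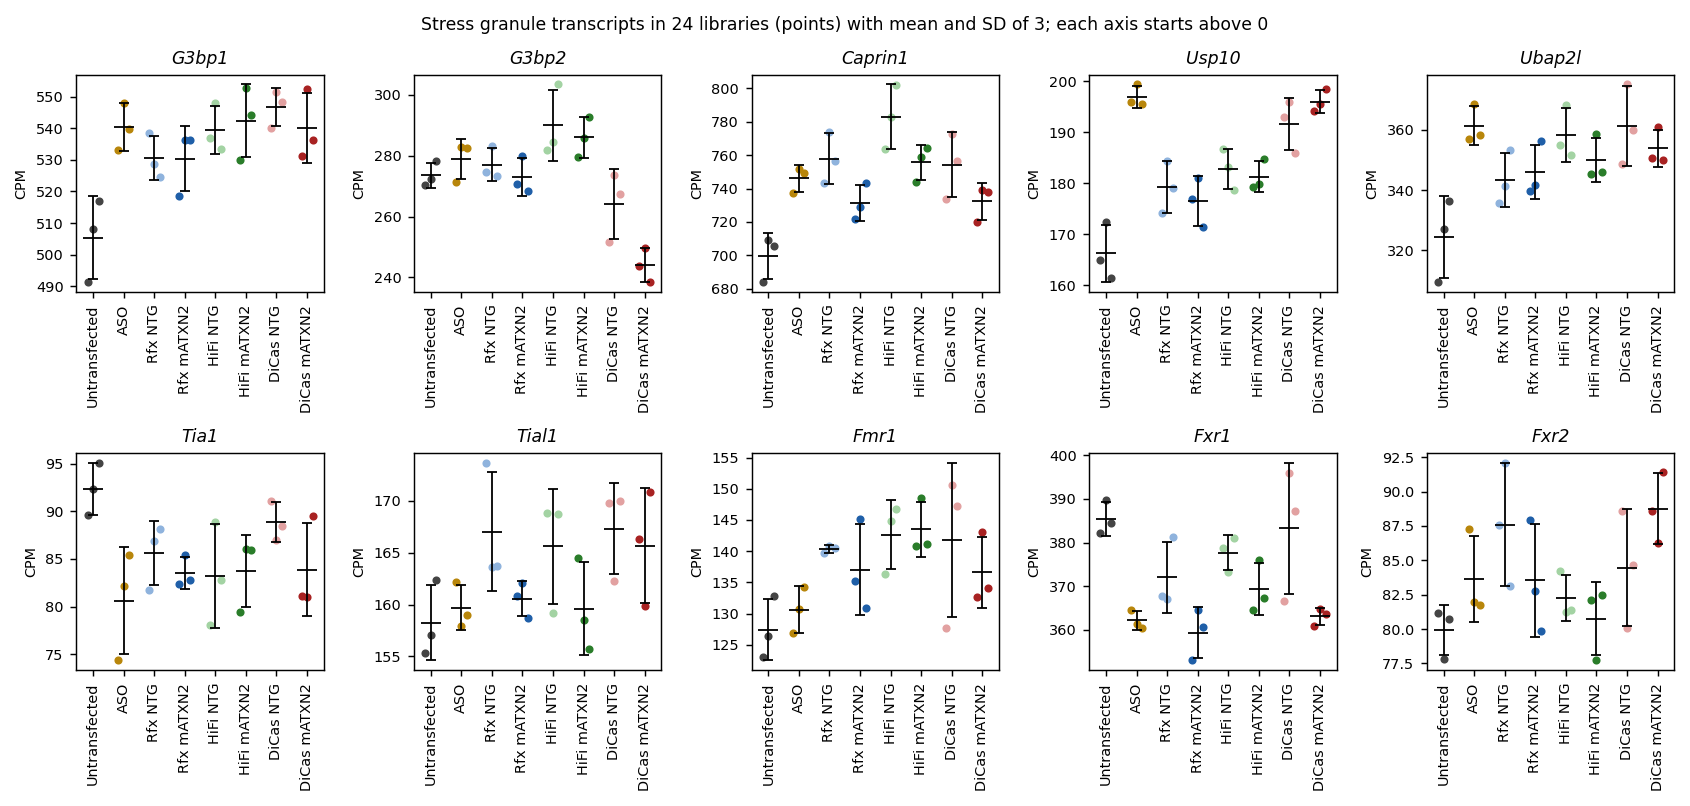
Levels of the 10 stress granule transcripts in CPM (vertical axes, which start above 0) in the 24 libraries, by group. Points are samples and bars are the mean with SD of 3 samples. Untransfected cells gave the lowest mean CPM by total count for 7 transcripts and the highest for Tia1 and Fxr1, and the means of a transcript spanned no more than 1.19-fold. On the scale of the test, which also applied TMM factors, the ASO samples lay lower than untransfected cells for Tial1 and Fmr1, neither called.

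Across the 8 groups the levels moved within a narrow range. The highest group mean was 1.06 to 1.19 times the lowest, against a median SD within groups of 1.34% to 4.23% of the mean. Even so, 9 of the 10 transcripts, all but Fxr2, differed somewhere among the groups in the F test of edgeR (adjusted p between 5.14e-06 for G3bp2 and 0.0488 for Tial1), where 50.3% of all tested genes did. Fxr2 narrowly missed the threshold (edgeR adjusted p = 0.0521). The calls for Tial1 and Fxr2 changed with many single libraries, between an adjusted p of 0.0503 and 0.116 for Tial1 where it was lost and between 0.0195 and 0.0496 for Fxr2 where it was gained, and without untransfected replicate 1 the calls for G3bp1 (edgeR adjusted p = 0.0718) and Ubap2l (0.0711) were lost too. Tial1 was also not called by DESeq2 (adjusted p = 0.0516) or limma-trend (adjusted p = 0.0569). In CPM by total count, untransfected cells had the lowest mean for G3bp1, Caprin1, Usp10, Ubap2l, Tial1, Fmr1 and Fxr2, and the highest for Tia1 and Fxr1. G3bp2 was the exception, with its highest mean in the NTG samples of HiFi-RfxCas13d (290.0 ± 11.7 CPM) and its lowest in the mATXN2 samples of DiCas7-11 (244 ± 5.53 CPM). For Tial1 and Fmr1 the lowest group depended on the scale. The test also applied TMM factors and put the ASO samples below untransfected cells (log2 fold changes of -0.029 and -0.0056, neither called). When the groups were ordered by mean CPM by total count, nearly all neighbours overlapped. The exceptions were the step from untransfected cells to the next group for G3bp1 and Caprin1, and the step between the 2 arms of DiCas7-11 for G3bp2.

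The comparison of mATXN2 with NTG asks whether directing each effector to ataxin-2 mRNA moves these transcripts. No stress granule transcript passed the threshold with any effector. For RfxCas13d, 0 of 10 were called where 1.39% of all genes were, and 0 of 10 had an unadjusted p under 0.05 against 13.8% of all genes. With HiFi-RfxCas13d the numbers were again 0 and 0 of 10, against 0.295% called and 7.45% with an unadjusted p under 0.05. DiCas7-11 gave 0 calls where 0.942% of genes were called, and 3 of 10 had an unadjusted p under 0.05 (G3bp2, Caprin1 and Fxr1, all lower) against 14% of genes. Limma-trend with the same adjustment also called 0 with each effector, whereas DESeq2 called 0, 0 and 2. The median log2 fold change of the 10 was -0.030, -0.016 and -0.047 for the 3 effectors, against 0.0016, -0.00098 and -0.00098 over all genes.

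The intervals give the range of change that the fit allows for each transcript. For RfxCas13d the 95% intervals of all 10 transcripts lay between -9.83% and 5.65%, for HiFi-RfxCas13d between -7.51% and 8.61%, and for DiCas7-11 between -12.8% and 11.1%. Each interval is for a single transcript, not for all 10 at once. All use a spread shared over the groups, although the NTG samples of DiCas7-11 varied most, so those of DiCas7-11 may be too narrow. Samples of the 2 arms did not overlap for 3 transcripts with RfxCas13d, 0 with HiFi-RfxCas13d and 2 with DiCas7-11, where 20.3%, 13.4% and 14.5% of all genes did not.

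Among the G3BP core, Caprin1 had the lowest p with both Cas13d effectors. It stood at 744, 774 and 756 CPM in the NTG samples of RfxCas13d and 722, 729 and 743 CPM in the mATXN2 samples. The arms did not overlap, yet the log2 fold change of -0.047 ± 0.025 (SE) was not called by edgeR (Benjamini-Hochberg adjusted p = 0.408). With HiFi-RfxCas13d it stood at 763, 783 and 802 against 744, 759 and 765 CPM, with overlap and a log2 fold change of -0.044 ± 0.024 (SE, edgeR adjusted p = 0.734). DiCas7-11 gave 734, 773 and 756 against 719.7, 739 and 738 CPM and -0.053 ± 0.025 (SE, edgeR adjusted p = 0.328).

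G3bp2, the second G3BP nucleator, showed the largest difference of the 10 between the arms of DiCas7-11. The NTG samples held 252, 274 and 267 CPM and the mATXN2 samples 244, 249.6 and 239 CPM. All 3 mATXN2 values were below all 3 NTG values, though NTG replicate 1 lay close to mATXN2 replicate 2. The log2 fold change was -0.13 ± 0.033 (SE), a difference of -8.36%, and missed the threshold (edgeR, Benjamini-Hochberg adjusted p = 0.0641). This call was not settled by the data: without NTG replicate 1 of DiCas7-11 the adjusted p was 0.00445, and over 15 alternatives it ranged from 0.00445 to 0.409, passing in 6. G3bp2 stood at 275, 283 and 273 against 271, 280.1 and 268 CPM with RfxCas13d and 282, 285 and 303 against 279, 286 and 293 CPM with HiFi-RfxCas13d, with overlap in both and log2 fold changes of -0.016 and -0.012. G3bp1 differed by 0.0042, 0.015 and -0.028 for the 3 effectors in the order RfxCas13d, HiFi-RfxCas13d, DiCas7-11, Usp10 by -0.017, -0.0046 and 0.023, and Ubap2l by 0.014, -0.027 and -0.041, with overlapping arms throughout.

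In the TIA family neither transcript was called. Tia1 stood at 91.1, 87.0 and 88.5 CPM in the NTG samples of DiCas7-11 and 81.1, 81.0 and 89.5 CPM in the mATXN2 samples, with a log2 fold change of -0.094 ± 0.050 (SE, edgeR adjusted p = 0.416). Its values with RfxCas13d (-0.033) and HiFi-RfxCas13d (0.017) were smaller. Tial1 did not overlap between the arms of RfxCas13d, where it held 174, 164 and 164 against 161, 162 and 159 CPM, but its log2 fold change of -0.051 did not pass (edgeR adjusted p = 0.527).

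The FXR family likewise gave no call. Fxr1 held 367, 396 and 387 CPM in the NTG samples of DiCas7-11 and 361, 365 and 364 CPM in the mATXN2 samples, which lay below all of them and close together. Its log2 fold change was -0.089 ± 0.026 (SE, edgeR, Benjamini-Hochberg adjusted p = 0.0980). Without NTG replicate 1 the adjusted p was 0.00362, and with all samples kept Fxr1 was called by DESeq2 (0.0254) and by limma-trend adjusted over 10 comparisons (0.0208). In the arms of RfxCas13d, Fxr1 held 368, 367 and 381 against 353, 365 and 361 CPM, again without overlap, with a log2 fold change of -0.046 (edgeR adjusted p = 0.466). Fmr1 differed by -0.028, 0.015 and -0.070 and Fxr2 by -0.061, -0.020 and 0.064 in the same order of effectors, with overlapping arms.

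Whether the effectors differed in their effect was tested as a difference of responses, each the mATXN2 value minus the NTG value. No stress granule transcript was called in any of the 3 contrasts, in which edgeR called 0.00% of all genes. An unadjusted p under 0.05 was reached by 0 of 10 for HiFi-RfxCas13d minus RfxCas13d, 2 of 10 for DiCas7-11 minus RfxCas13d (G3bp2 and Fxr2) and 1 of 10 for DiCas7-11 minus HiFi-RfxCas13d (G3bp2), against 6.15%, 7.80% and 7.40% of genes. DESeq2 and limma-trend also called 0 of the 10. For G3bp2 the response to DiCas7-11 was lower by -0.11 ± 0.047 (log2, SE) than that to RfxCas13d (edgeR adjusted p = 0.616) and by -0.11 ± 0.046 than that to HiFi-RfxCas13d (edgeR adjusted p = 0.635). A smaller effect on G3bp2 in the Cas13d groups than in the DiCas7-11 groups was therefore not shown.

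**Figure D2:**
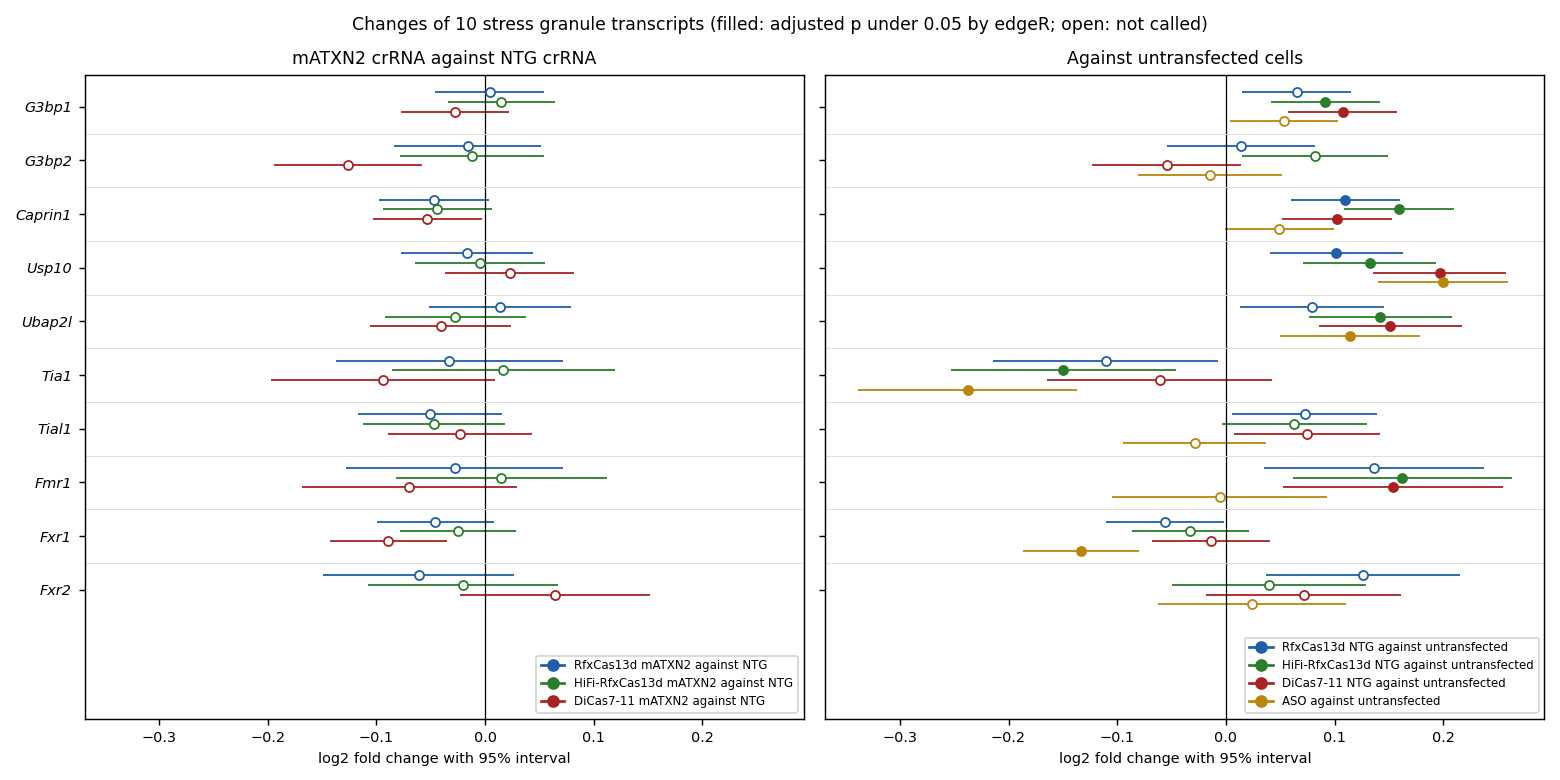
Log2 fold change (horizontal axis) with its 95% interval for each stress granule transcript, by comparison. The left panel sets mATXN2 against NTG, where every point is open (not called), and the right panel sets the NTG and ASO groups against untransfected cells, where Usp10 is filled (called) in all 4 comparisons.

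The NTG groups, which differ from untransfected cells in the transfection, the effector plasmid and the control construct together, were next compared with those cells. Here Caprin1 and Usp10 rose with all 3 effectors, and G3bp1, Ubap2l and Fmr1 rose with HiFi-RfxCas13d and DiCas7-11. With RfxCas13d 2 of 10 were called, both higher, where 11.3% of all genes were called, 5.60% higher and 5.66% lower. HiFi-RfxCas13d gave 5 higher and 1 lower, where 20.9% were called, 10.3% higher and 10.6% lower. DiCas7-11 gave 5 higher and 0 lower, where 21.9% were called, 11.1% higher and 10.8% lower. These shares were not matched for level. Of 10587 genes that reached 5 CPM in at least 3 samples, 1650, 2943 and 3066 were called with the 3 effectors. The median log2 fold change of the 10 was 0.076, 0.087 and 0.088, against -0.0046, -0.0054 and -0.0062 over all genes. The NTG samples did not overlap with the untransfected ones for 8, 9 and 4 of the 10, where 28.6%, 35.7% and 31.8% of all genes did not. These comparisons, and the one with the ASO, share the same 3 untransfected samples, so their likeness is not independent. A change in the share of a kind of cell cannot be told apart from a change in RNA per cell in such bulk samples.

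Caprin1, the G3BP partner that favours assembly, stood at 684, 709 and 706 CPM in untransfected cells. Every NTG sample was higher, including all 3 of HiFi-RfxCas13d. The log2 fold change was 0.11 ± 0.025 (SE) for RfxCas13d (edgeR, Benjamini-Hochberg adjusted p = 0.00353), 0.16 ± 0.025 for HiFi-RfxCas13d (adjusted p = 2.70e-05) and 0.10 ± 0.025 for DiCas7-11 (adjusted p = 0.00310). Fitted to the 6 samples of the DiCas7-11 comparison alone, the last had an adjusted p of 0.0568.

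Usp10, the deubiquitinase that opposes assembly, stood at 165, 172 and 161 CPM in untransfected cells. It held 174, 184 and 179 CPM in the NTG samples of RfxCas13d, 187, 183 and 179 CPM in those of HiFi-RfxCas13d and 193, 196 and 186 CPM in those of DiCas7-11. The untransfected samples lay below all 9. Its log2 fold changes were 0.10 ± 0.030 (SE, edgeR, Benjamini-Hochberg adjusted p = 0.0262), 0.13 ± 0.030 (adjusted p = 0.00192) and 0.20 ± 0.030 (adjusted p = 2.10e-05). Only the first was unstable, with an adjusted p of 0.113 without RfxCas13d NTG replicate 2, 0.0536 without NTG replicate 3, 0.0775 without untransfected replicate 1 and 0.104 without untransfected replicate 3.

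G3bp1 stood at 491, 508 and 517 CPM in untransfected cells, 538, 529 and 525 CPM with RfxCas13d NTG, 537, 548 and 533 CPM with HiFi-RfxCas13d NTG and 540.1, 552 and 548 CPM with DiCas7-11 NTG. No NTG sample reached down into the untransfected range. It rose by a log2 fold change of 0.091 ± 0.024 (SE) with HiFi-RfxCas13d (edgeR, Benjamini-Hochberg adjusted p = 0.00772, and 0.0656 without untransfected replicate 1) and 0.11 ± 0.025 with DiCas7-11 (adjusted p = 0.00191), and had 0.065 with RfxCas13d (adjusted p = 0.0849, and 0.0498 without untransfected replicate 3). Its paralog G3bp2 stood at 270.2, 272 and 278 CPM in untransfected cells and was called in none of the 3, with log2 fold changes of 0.014, 0.082 and -0.055, though the second passed without HiFi-RfxCas13d NTG replicate 1 (edgeR adjusted p = 0.0492) and with no filter (0.0376).

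Ubap2l stood at 309, 327 and 336 CPM in untransfected cells, 336, 341 and 353 CPM with RfxCas13d NTG, 355, 368 and 352 CPM with HiFi-RfxCas13d NTG and 349, 375 and 359.9 CPM with DiCas7-11 NTG. The first NTG group overlapped with the untransfected samples and the other two did not. The rises were 0.14 ± 0.032 (log2, SE) with HiFi-RfxCas13d (edgeR, Benjamini-Hochberg adjusted p = 0.00186) and 0.15 ± 0.032 with DiCas7-11 (adjusted p = 0.000969). RfxCas13d gave 0.079 (edgeR adjusted p = 0.113, but 0.047 with a block for replicate number).

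Tia1 went the other way. It stood at 89.6, 92.4 and 95.1 CPM in untransfected cells, 81.8, 86.9 and 88.2 CPM with RfxCas13d NTG and 78.0, 88.9 and 82.8 CPM with HiFi-RfxCas13d NTG. Both NTG groups lay below the untransfected samples, and only HiFi-RfxCas13d passed the test, with a fall of -0.15 ± 0.051 (log2, SE, edgeR, Benjamini-Hochberg adjusted p = 0.0338). That call was lost without HiFi-RfxCas13d NTG replicate 1 (edgeR adjusted p = 0.187), NTG replicate 3 (0.0844), untransfected replicate 2 (0.0851) or untransfected replicate 3 (0.115). RfxCas13d gave -0.11 (edgeR adjusted p = 0.169) and DiCas7-11 -0.061 (adjusted p = 0.434), the latter with overlap. Its paralog Tial1, at 155, 157 and 162 CPM in untransfected cells, 169, 159 and 169 CPM with HiFi-RfxCas13d NTG and 169.8, 162 and 170.0 CPM with DiCas7-11 NTG, was not called, and its log2 fold changes of 0.073, 0.063 and 0.075 were positive.

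Of the FXR family, Fmr1 stood at 123, 126 and 133 CPM in untransfected cells, 139.7, 141 and 141 CPM with RfxCas13d NTG, 136, 145 and 147 CPM with HiFi-RfxCas13d NTG and 128, 151 and 147 CPM with DiCas7-11 NTG. DiCas7-11 NTG replicate 1 fell within the untransfected range and all other NTG samples were above it. Fmr1 rose by 0.16 ± 0.049 (log2, SE) with HiFi-RfxCas13d (edgeR, Benjamini-Hochberg adjusted p = 0.0175) and 0.15 ± 0.049 with DiCas7-11 (adjusted p = 0.0241), whereas RfxCas13d gave 0.14 (adjusted p = 0.0721, but 0.0121 in a fit to its 6 samples alone and 0.00486 with no filter). Both calls were fragile. For HiFi-RfxCas13d, leaving out NTG replicate 2 gave an adjusted p of 0.0595 in edgeR, NTG replicate 3 gave 0.0814, untransfected replicate 1 gave 0.0895 and untransfected replicate 2 gave 0.0557. For DiCas7-11, leaving out the same 4 replicate numbers of its own groups gave 0.174, 0.112, 0.110 and 0.0702, and a fit to the 6 samples alone gave 0.0861. Fxr1 (-0.056, -0.033 and -0.014) and Fxr2 (0.13, 0.039 and 0.072) were called in none of the 3. Fxr2 came closest with RfxCas13d, where it held 87.6, 92.1 and 83.1 CPM against 81.2, 77.8 and 80.7 CPM in untransfected cells without overlap (edgeR adjusted p = 0.0576, but 0.0237 without NTG replicate 3, 0.0496 with RLE normalization and 0.0483 with limma-trend).

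The ASO, an oligonucleotide that acts without a plasmid or an effector protein, was likewise compared with untransfected cells. The groups differ in delivery, in the presence of an oligonucleotide and in the level of ataxin-2 mRNA together. No control oligonucleotide was among the groups, so these cannot be told apart. The sample labels give no time of harvest for either group. Usp10 and Ubap2l rose and Tia1 and Fxr1 fell. These were 4 of 10 called, in a comparison where 42.7% of all genes were called, 21.0% higher and 21.7% lower. The median log2 fold change of the 10 was 0.0092 against -0.0021 over all genes, and their median absolute change was 0.051 against 0.17. Samples did not overlap for 7 of the 10, against 52.8% of all genes. Overlap was judged on CPM by total count, without the TMM factors that the test applied. These were 1.02 to 1.03 in the ASO samples and 0.992 to 0.997 in untransfected cells, so narrow gaps between the groups depend on the scale. The ASO samples, at 21874644 to 22504999 counts, were also deeper than the untransfected samples, at 12665725 to 16813658. The 4 immune markers summed to 1.07 to 2.42 CPM in them and to 0.0639 to 0.379 CPM in untransfected cells, with only Cd68 detected. The part of either in these results was not tested.

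Usp10 held 196, 199 and 195 CPM in the ASO samples, its highest mean of the 8 groups, against 165, 172 and 161 CPM in untransfected cells. The groups did not overlap, with a log2 fold change of 0.20 ± 0.029 (SE, edgeR, Benjamini-Hochberg adjusted p = 2.12e-06) and an interval of 10.2% to 19.7% higher. Ubap2l held 357, 369 and 358 CPM in the ASO samples, all above the untransfected ones, and rose by 0.11 ± 0.032 (log2, SE, edgeR adjusted p = 0.00420, and 0.0520 without untransfected replicate 1). G3bp1, at 533, 548 and 539.7 CPM, and Caprin1, at 737, 752 and 749 CPM, lay above the untransfected samples without overlap in CPM by total count. Neither was called (log2 fold changes of 0.054 and 0.049, edgeR adjusted p = 0.0758 and 0.107). G3bp1 passed in edgeR without untransfected replicate 3 (0.0276), with a filter of 5 CPM (0.0299), with a coding length correction (0.0190) and with a replicate block (0.0318). Caprin1 passed with that filter (0.0442), with that block (0.0258) and in a fit to the 6 samples alone (0.0492). G3bp2, at 271, 283 and 282 CPM, overlapped with the untransfected samples.

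Tia1 held 74.4, 82.2 and 85.4 CPM in the ASO samples, all below the untransfected ones, with replicate 1 lowest. It fell by a log2 fold change of -0.24 ± 0.049 (SE, edgeR, Benjamini-Hochberg adjusted p = 0.000250), with an interval of -20.9% to -9.05%, the largest change of the 10 in any comparison. Tial1, at 162, 158 and 159 CPM, was not called (-0.029, edgeR adjusted p = 0.499). Fxr1 held 365, 361 and 360.5 CPM, all below the untransfected 382, 389.8 and 384 CPM, and fell by -0.13 ± 0.026 (log2, SE, edgeR adjusted p = 0.000126). Its paralogs were not called, with Fmr1 at 127, 131 and 134 CPM (-0.0056) and Fxr2 at 87.3, 82.0 and 81.8 CPM (0.024). For Fmr1, Tial1 and G3bp2 the mean CPM was slightly higher in the ASO samples while the log2 fold change was below 0, since the test also applied TMM factors, which were 1.02 to 1.03 in the ASO samples and 0.992 to 0.997 in untransfected cells, so no direction is read for them. The calls for Usp10, Tia1 and Fxr1 held under all 15 alternatives tried.

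**Figure D3:**
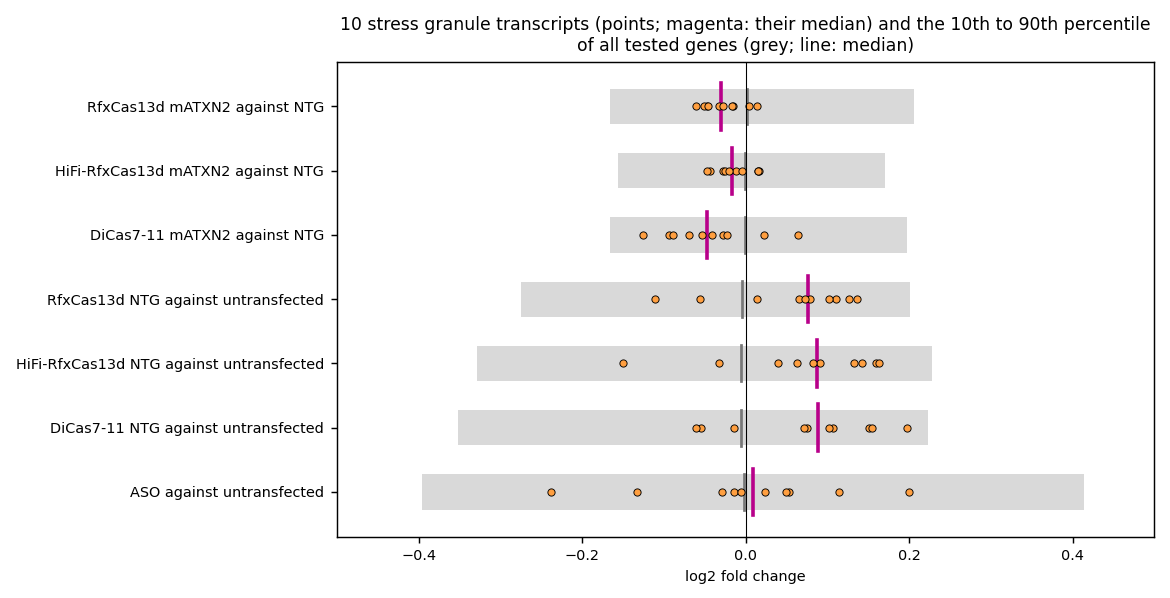
Log2 fold change (horizontal axis) of the 10 stress granule transcripts (points, with their median in magenta) in each of 7 comparisons, over the range from the 10th to the 90th percentile of all 13901 tested genes (grey bars, with their median as a line). All 10 lay within the grey range in every comparison, and their median lay above that of all genes in the 3 comparisons of NTG with untransfected cells.

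Across the 24 samples, some members varied together. Pearson's r of log2 CPM, a description over samples that share groups and library preparation, was highest between G3bp1 and Ubap2l (0.84), Caprin1 and Fmr1 (0.78) and G3bp1 and Fmr1 (0.75), and lowest between G3bp2 and Fxr2 (-0.50). The paralogs G3bp1 and G3bp2 gave 0.14, Tia1 and Tial1 0.050, Fmr1 and Fxr1 0.41, Fmr1 and Fxr2 -0.047, and Fxr1 and Fxr2 -0.38. For each transcript that differed among the groups, the 2 most alike of 10912 genes with a mean of at least 50 counts were named. G3bp1 was most like Pus7 (0.90) and Sfpq (0.90), G3bp2 like Tax1bp1 (0.88) and Smarce1 (0.86), and Caprin1 like Ddx21 (0.92) and Set (0.91). Usp10 was most like Pcdhac2 (0.89) and Mtmr2 (0.89), Ubap2l like Shtn1 (0.88) and Naa15 (0.86), and Fmr1 like Hnrnpu (0.92) and Dek (0.92). Fxr1 was most like Prc1 (0.90) and the pseudogene Gm15501 (0.89), Tia1 like Gpr3 (0.79) and LOC118568634 (0.79), and Tial1 like D17H6S56E-5 (0.77) and Gnaq (0.76).

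The other genes of the stress granule pathway were taken from a list of 71 genes, without Atxn2 and the 10 above, of which 68 were tested. With mATXN2 against NTG, 3 were higher and 1 lower for RfxCas13d (5.88%), 0 for HiFi-RfxCas13d, and 1 was higher and 4 lower for DiCas7-11 (7.35%), where 1.39%, 0.295% and 0.942% of all genes were called. Their median log2 fold change was -0.014, -0.0058 and -0.026. The largest with RfxCas13d were Prrc2a (0.18 ± 0.029, log2, SE, edgeR adjusted p = 0.000596) and Prrc2b (0.13), proteins with long disordered regions found in stress granules, and Taf15 (-0.12), an RNA-binding protein gene. DiCas7-11 gave Prrc2a (0.19 ± 0.029, edgeR adjusted p = 0.00128), the mRNA-binding protein gene Serbp1 (-0.15) and the splicing factor gene Hnrnpa1 (-0.13). Of 8 targets of the eIF2alpha-ATF4 stress response, 0, 0 and 1 were called, the last lower.

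Against untransfected cells, the 68 gave 15 higher and 5 lower with RfxCas13d NTG, 22 higher and 3 lower with HiFi-RfxCas13d NTG, 19 higher and 3 lower with DiCas7-11 NTG and 23 higher and 15 lower with the ASO, or 29.4%, 36.8%, 32.4% and 55.9% of them where 11.3%, 20.9%, 21.9% and 42.7% of all genes were called. Their median log2 fold change was 0.038, 0.060, 0.037 and 0.021. The share over all genes was not matched to the 68 for level. Of 10587 genes that reached 5 CPM in at least 3 samples, 1650, 2943, 3066 and 5460 were called. The group of poly(A)-binding and ataxin-2-associated proteins, such as PABPC1 and ATXN2L, had 4, 5, 2 and 7 of 9 higher and 0, 0, 1 and 1 lower in these comparisons. Stalled initiation factors had 2, 3, 3 and 0 of 10 higher and 1, 1, 1 and 3 lower. RNA helicases had 1, 2, 4 and 3 of 7 higher and 0, 0, 0 and 1 lower. TDP-43 and related RNA-binding proteins had 3 of 7 higher and 0 lower with each NTG group, and 0 higher and 2 lower with the ASO (28.6%, below the share over all genes). Genes of granule disassembly and clearance had 3, 4, 2 and 5 of 9 higher and 0, 1, 0 and 3 lower, and other RNA-binding proteins had 2, 5, 5 and 8 of 26 higher and 4, 1, 1 and 5 lower, or 23.1% of the latter with each NTG group.

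The eIF2alpha-ATF4 targets had 2, 3, 2 and 4 of 8 higher and 1, 1, 3 and 2 lower in the same order, or 37.5%, 50%, 62.5% and 75%. Those of largest change were Atf3, a stress-induced transcription factor, with log2 fold changes of 0.42, 0.58 and 0.63 in the NTG groups, Ppp1r15a, whose product GADD34 directs the dephosphorylation of eIF2alpha, with 0.29 for HiFi-RfxCas13d NTG, 0.32 for DiCas7-11 NTG and 0.54 for the ASO, and Ddit3 (CHOP), with 0.77 for the ASO. Trim21, a ubiquitin ligase that modifies G3BP1, rose in all 4, by 0.77, 0.60, 0.54 and 0.78. Cirbp, a cold-inducible RNA-binding protein, fell by 0.34 on the log2 scale with RfxCas13d NTG. The adjusted p by edgeR for these genes was between 1.31e-11 and 0.00768. Whether levels of these genes followed those of the members called against untransfected cells was not examined. Their part in the changes of those members was not tested.

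**Figure D4:**
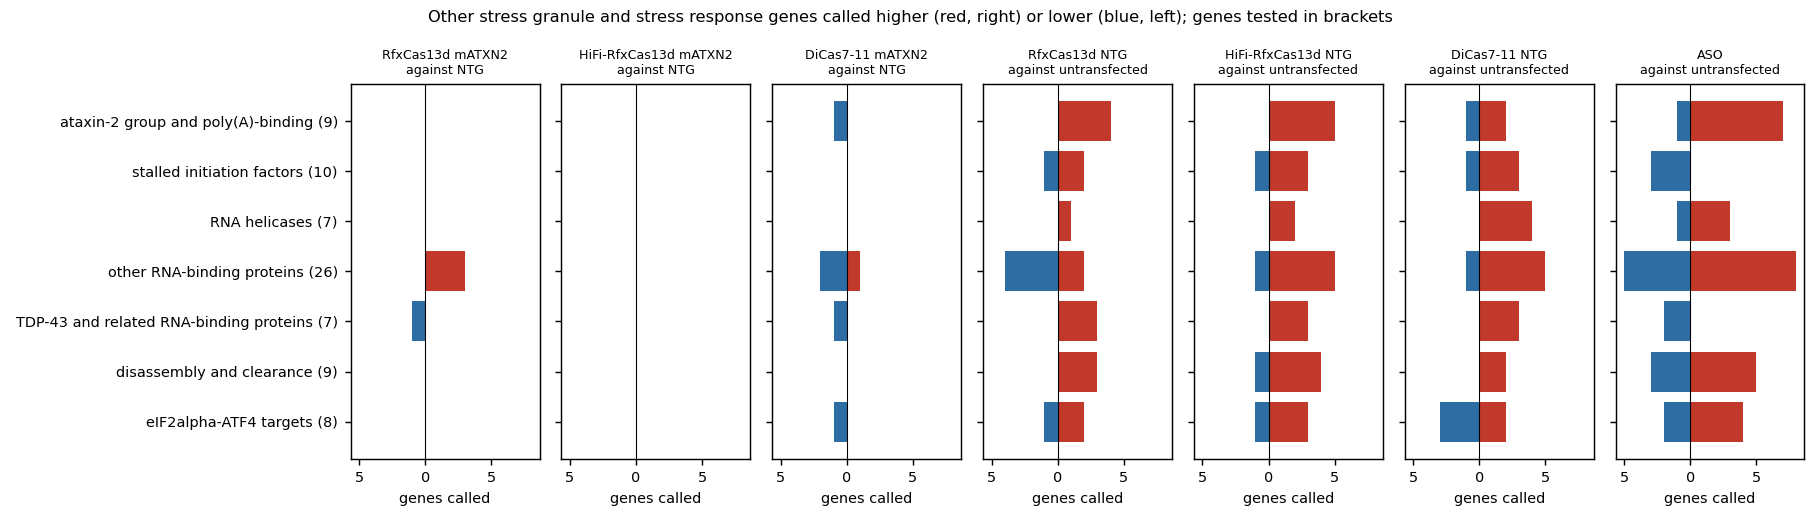
Number of genes of each other stress granule list and of the eIF2alpha-ATF4 targets called higher (red, to the right) or lower (blue, to the left) in each of 7 comparisons (horizontal axes), with the number of tested genes of each list in brackets. Of 68 stress granule genes, 0 to 5 were called between mATXN2 and NTG, where at most 1.39% of all genes were, and 20 to 38 against untransfected cells, where 11.3% to 42.7% were.

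Promoters are shown for the 5 members called higher with both HiFi-RfxCas13d NTG and DiCas7-11 NTG (G3bp1, Caprin1, Usp10, Ubap2l and Fmr1), so that their letters can be compared, and for Tia1, which fell with HiFi-RfxCas13d NTG and the ASO. The sequences are the 250 bases before the first listed start of each gene in RefSeq (GRCm38.p6, another build than the one used for the counts), written 5′ to 3′ on the strand of the gene. Capitals mark CACGTG (E-box) and GCGCATGC (the core of an NRF1 site, on either strand) in these windows. All 10 members matched a promoter in the table.

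G3bp1, chr11:55469502-55469751, plus strand: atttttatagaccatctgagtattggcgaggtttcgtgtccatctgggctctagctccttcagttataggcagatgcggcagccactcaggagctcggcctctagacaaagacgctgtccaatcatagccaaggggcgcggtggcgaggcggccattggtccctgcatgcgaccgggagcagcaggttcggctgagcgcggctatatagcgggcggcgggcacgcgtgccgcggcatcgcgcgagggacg

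Caprin1, chr2:103797079-103797328, minus strand: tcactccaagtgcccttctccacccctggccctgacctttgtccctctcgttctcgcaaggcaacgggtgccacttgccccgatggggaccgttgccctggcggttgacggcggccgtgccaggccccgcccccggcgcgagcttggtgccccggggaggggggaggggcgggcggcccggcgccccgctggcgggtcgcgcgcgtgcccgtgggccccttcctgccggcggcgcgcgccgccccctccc

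Ubap2l, chr3:90052481-90052730, minus strand: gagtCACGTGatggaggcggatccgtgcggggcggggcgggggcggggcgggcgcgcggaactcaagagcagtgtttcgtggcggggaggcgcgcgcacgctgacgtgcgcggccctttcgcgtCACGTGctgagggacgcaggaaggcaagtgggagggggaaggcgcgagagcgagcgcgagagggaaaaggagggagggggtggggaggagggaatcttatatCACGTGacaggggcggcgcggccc

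Fmr1, chrX:68678291-68678540, plus strand: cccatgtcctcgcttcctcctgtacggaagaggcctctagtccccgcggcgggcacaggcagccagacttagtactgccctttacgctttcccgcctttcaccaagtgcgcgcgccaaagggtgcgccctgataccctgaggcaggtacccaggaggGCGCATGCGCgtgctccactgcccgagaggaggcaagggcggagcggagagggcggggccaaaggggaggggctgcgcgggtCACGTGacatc

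Usp10, chr8:119910110-119910359, plus strand: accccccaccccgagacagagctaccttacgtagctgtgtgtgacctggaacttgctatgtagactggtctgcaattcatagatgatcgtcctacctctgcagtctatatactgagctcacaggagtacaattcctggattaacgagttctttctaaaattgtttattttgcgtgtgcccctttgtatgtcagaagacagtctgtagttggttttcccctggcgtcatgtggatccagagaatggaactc

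Tia1, chr6:86403969-86404218, plus strand: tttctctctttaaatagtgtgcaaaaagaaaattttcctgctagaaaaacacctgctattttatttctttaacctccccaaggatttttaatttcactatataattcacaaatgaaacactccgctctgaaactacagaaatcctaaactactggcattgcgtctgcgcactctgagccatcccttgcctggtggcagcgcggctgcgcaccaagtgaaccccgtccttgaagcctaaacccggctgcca

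CACGTG occurred 3 times in the Ubap2l window and in Fmr1, that is in 2 of the 10 members and in 6.05% of 27025 RefSeq promoters. The G3bp1, Caprin1 and Usp10 windows, of members that rose in the same comparisons, held neither motif. GCGCATGC occurred in G3bp2 and Fmr1, 2 of 10, and in 2.32% of promoters. Both strands were searched. The matches of GCGCATGC overlapped each other on opposite strands, and none overlapped an E-box. CCGGAAG (ETS), TGACGTCA (CRE) and TGATGNAAT (an element bound by C/EBP and ATF factors) were searched likewise and were in none of the 10 windows, against 7.05%, 1.62% and 0.825% of promoters. The Usp10 and Tia1 windows were 46.4% and 44.0% G and C, the lowest of the 10, and those of G3bp1, Caprin1, Ubap2l and Fmr1 62.0%, 78.0%, 71.2% and 67.2%. A match is a description of letters in these windows and says nothing of a bound factor.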

How the data were processed

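RNA-seq libraries were prepared with a stranded mRNA kit and read from one end for 101 cycles. Per the authors' methods and processing notes, reads were quantified with Salmon 1.5.2 against the NCBI mouse transcriptome (genome build GRCm39) correcting for GC and sequence bias, and tximport in R 4.2.2 gave values per gene (lengthScaledTPM). The deposited values are therefore expected counts, scaled by transcript length but not by library size, and reads shared between paralogs were divided by estimation.

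Expected counts were rounded for edgeR 4.0.16 in R 4.3.3. The test kept the genes that reached 0.5 CPM in 3 or more of the 24 samples. A quasi-likelihood model with 8 group coefficients was fitted after TMM scaling, with Benjamini-Hochberg adjustment within each comparison and a threshold of 0.05. Standard errors and 95% intervals come from this fit, and the levels printed are CPM by total count. P-values and standard errors rest on a spread between replicates estimated over all 24 samples and moderated across genes. They do not measure the spread of the 2 groups compared alone. Replicates of DiCas7-11 NTG, the most variable group, differed by 3.34 to 5.6 times counting noise in chi-square. An exact permutation test of 3 against 3 cannot go below 0.1. Transcript lengths came from GENCODE M21 (GRCm38), with a coding length for 87.2% of tested genes. The scripts were tested on simulated data. Alternatives were RLE normalization, no filter or one of 5 CPM, DESeq2 1.42.0, limma-trend 3.58.1 (prior count 3) adjusted within comparisons or over 10 together, only the samples compared, a replicate block, a coding length correction, and each library left out.

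The 10 members and all lists were chosen with earlier results of these data known. By rule, all members are described, values per sample are given for members that were called or had the lowest p of a comparison, and of the other lists at most the 3 called genes of largest change per comparison are named. The crRNA and protein sequences were not used here.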

Additional observations from a re-analysis of the deposited data

How the results depend on the processing

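The number of stress granule transcripts called moved by more than 1.5 times in 3 comparisons. For mATXN2 against NTG with DiCas7-11, where 0 were called, 1 was called with no filter, 1 with a filter of 5 CPM, 1 with the replicate block, 2 with limma-trend adjusted over 10 comparisons together and 2 with DESeq2, and 0 to 2 when a library was left out (2 without NTG replicate 1). These were G3bp2 and, where 2, also Fxr1. For RfxCas13d NTG against untransfected cells, where 2 were called, the replicate block gave 6 and leaving out a library 1 to 2. With the block, 1821 of 13901 genes were called, and G3bp1 (edgeR adjusted p = 0.0339), Ubap2l (0.047), Fmr1 (0.0247) and Fxr2 (0.034) were gained. For DiCas7-11 NTG against untransfected cells, where 5 were called, only the samples compared gave 3. The cause was not tested. In the other 187 values of these counts the number stayed within 1.5 times, and no called change reversed. Among refits of single called changes, 235 kept the call and 20 lost it, as given beside each gene. Deviations of same-numbered samples from their group means had correlations of -0.108 to 0.235. With 3 samples a group these cannot exclude a batch shared by replicate number. The main fit did not pair samples by number. Over all genes, calls for mATXN2 against NTG depended more on the setting. They were 193, 41 and 131 for RfxCas13d, HiFi-RfxCas13d and DiCas7-11, against 434, 201 and 366 with no filter, 707, 269 and 636 with limma-trend adjusted over 10 comparisons, 274, 66 and 286 with DESeq2, 292, 46 and 251 with the replicate block, 132, 15 and 114 with the coding length correction, and 389, 105 and 1 with only the samples compared. The last setting gave 1855 for DiCas7-11 NTG against untransfected cells, against 3044. A filter of 5 CPM gave 240, 46 and 167 of 10587 genes for mATXN2 against NTG, in the same order of effectors. With no filter, 84, 72 and 80 genes differed between effectors in their response, against 0. At 3 samples a group, the standard errors of the 10 transcripts were 0.024 to 0.051 on the log2 scale in comparisons of 2 groups and up to 0.072 for differences of responses.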
